A study of Mus musculus with 20 samples.

Results

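A set of 10 tubulin and microtubule protein genes of growing neurons was followed through habenula development: Tuba1a, Tubb3, Tubb2b, Tubb4a, Dcx, Stmn1, Stmn2, Map1b, Map2 and Mapt. They were chosen by name, and all 10 have a row among the 37994 genes of the developmental series and among the 36104 genes of a second set of E18 plates. The habenula is a paired nucleus of the epithalamus, and transcripts were counted well by well on 20 plates of 384 wells with CEL-seq2, a plate method that tags the 3′ end of each transcript with a unique molecular identifier (UMI). The developmental series came from the Brn3a-tauLacZ mouse line, with 2 plates each at embryonic days 11, 13, 15 and 18 (E11 to E18), at postnatal days 4 and 7 (P4 and P7) and in the adult, and 1 plate at E12. For the second set, C57BL/6 mice of stage E18 gave 2 plates from the left habenula, 2 from the right and 1 from both sides. Brn3a is the older name of Pou4f1, the transcription factor gene that marks habenula neurons, and tau is the product of Mapt. The genotype at the reporter locus, the age of the adults, the number of mice behind a plate and whether cells were sorted are not stated in the labels. Whether reporter transcripts were counted under Mapt was not tested. Nothing states that the plates came from separate animals, so p-values measure the spread between plates.

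Microtubules are built from dimers of alpha- and beta-tubulin, and vertebrates carry several genes for each. A growing neuron makes much tubulin for its axon and dendrites, and proteins that bind microtubules or free dimers set how quickly the polymer grows and shrinks. Tuba1a encodes the main alpha-tubulin of developing neurons, Tubb3 and Tubb2b encode beta-tubulins of young neurons, and Tubb4a encodes a beta-tubulin of mature neurons and of oligodendrocytes. Doublecortin (Dcx) binds microtubules in migrating and newly born neurons. Stathmin 1 (Stmn1) and stathmin 2 (Stmn2) bind tubulin dimers and favour disassembly, the second of them in growth cones. Map1b, Map2 and tau (Mapt) bind along microtubules, Map1b in growing axons, Map2 mainly in dendrites and tau mainly in axons.

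Tubulins are much alike along most of their length and differ at their acidic tails, which modifying enzymes and motors use. The ends of the 3 beta-tubulin genes are shown because they tell these genes apart: the last 60 coding bases, 5′ to 3′, stop codon in capitals, from GENCODE release M21 (GRCm38), with those of Tubb2a, the close relative of Tubb2b, for comparison. In the Tubb2a line the other capitals mark the 3 bases that differ from Tubb2b.
Tubb3: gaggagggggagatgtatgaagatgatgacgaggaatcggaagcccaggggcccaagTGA
Tubb2b: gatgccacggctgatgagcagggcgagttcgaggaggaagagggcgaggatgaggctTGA
Tubb4a: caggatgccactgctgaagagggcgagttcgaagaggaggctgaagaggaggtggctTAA
Tubb2a: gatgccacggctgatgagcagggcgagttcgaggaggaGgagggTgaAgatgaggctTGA
Coding bases were also compared position by position from the start codon, without the last 60 of the shorter gene and without alignment. Tubb2b and Tubb2a were 96.6% identical over 1278 bases. The pairs among Tubb3, Tubb2b and Tubb4a were 84 to 85.1% identical over 1275 or 1278 bases. Within the last 500 bases of each gene's longest coding transcript, every stretch of 50 bases was searched in all other annotated transcripts. For Tuba1a, 254 of 451 stretches (56.3%) also occurred in other genes, Tuba1b and Tuba1c among them, so reads could be split between these genes and the level of Tuba1a is uncertain. For Stmn1 it was 11 of 451 (2.44%), in the pseudogene Gm11223, and for the other 8 genes 0 of 451.

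On GRCm38 (mm10) the genes lie apart from each other. Tuba1a is on chromosome 15 (98949837 to 98953703, minus strand), Tubb3 on chromosome 8 (123411424 to 123422015, plus strand), Tubb2b on chromosome 13 (34126748 to 34130466, minus strand) and Tubb4a on chromosome 17 (57080066 to 57087782, minus strand). Dcx is on chromosome X (143855842 to 143933311, minus strand), Stmn1 on chromosome 4 (134468320 to 134473843, plus strand) and Stmn2 on chromosome 3 (8509360 to 8561606, plus strand). Map1b is on chromosome 13 (99421446 to 99516540, minus strand), Map2 on chromosome 1 (66175273 to 66442583, plus strand) and Mapt on chromosome 11 (104231390 to 104332090, plus strand). Another annotated gene overlaps Tuba1a (Gm49450), Tubb3 (Gm20388), Stmn1 (Gm23634), Map1b (5330431K02Rik) and Map2 (Gm24729 and Gm25411) on the same strand. Genes on the opposite strand overlap Map2 (Gm10558) and Mapt (Gm11659, Gm22743 and Gm47310), and whether counting used strand is not given.

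After filtering, 3729 of 5756 series wells and 1082 of 1920 wells of the second set were kept, and 2933 and 727 of these held at least 1 count of Pou4f1. These Pou4f1-positive wells are the neuron-enriched class used below, from 21 wells on adult plate 1 to 304 on E11 plate 2. Levels are given as CPM (counts scaled to a total of 1000000) over all counts in a plate's kept wells or in its Pou4f1-positive wells, and the latter held between 556190 counts (adult plate 1) and 7421718 counts (P7 plate 1). In sums over all kept wells, fewer cells of a type and less RNA per cell cannot be told apart. Of 8 habenula markers, 6 or more were above 0 in the Pou4f1-positive wells of every series plate; Tac2 was at 0 on both E13 plates, on 1 E15 plate and on 1 E18 plate, and Gpr151 on 1 E11 plate and 1 E15 plate. Plates of some stages stood apart. On E18 plate 1, 75 of 267 kept wells were Pou4f1-positive, against 94 of 110 on E18 plate 2, and 8 progenitor markers summed to 1681 CPM in its Pou4f1-positive wells, against 159.6 CPM on plate 2. On E13 plate 2, 6 ependymal and choroid plexus markers summed to 2485 CPM in Pou4f1-positive wells, against 6.83 CPM on E13 plate 1. On adult plate 1 all 21 Pou4f1-positive wells held 5 or more counts of myelin genes, against 81 of 180 on adult plate 2, and 8 oligodendrocyte markers summed to 4363 and 293 CPM. The same sum was at most 107 CPM in Pou4f1-positive wells of the earlier plates. The sources name 5 plates per sequencing run but not which, so run and stage cannot be told apart.

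Tubulin genes of the growth stage had their highest level at E11 and their lowest in the adult. Among Pou4f1-positive wells, Tuba1a was 19.6-fold, Tubb3 17.8-fold and Tubb2b 57-fold higher at E11 than in the adult, as ratios of mean CPM over 2 plates each. Against adult plate 1 and adult plate 2 taken singly, the ratios for Tubb2b were 76.4 and 45.5. Dcx was 24.5-fold (singly 18.8 and 34.9), Stmn1 49.1-fold (singly 33.2 and 94.4), Stmn2 7.88-fold and Map2 2.38-fold higher at E11 than in the adult. Tubb4a ran the other way, with its highest mean in the adult and its lowest at E13, 2.57-fold apart. Adult plate 1, with 4363 CPM of oligodendrocyte markers, stood 3.49-fold above the E13 mean and adult plate 2 1.65-fold, within the range of the P7 plates. Without adult plate 1 the log2 fold change of Tubb4a from P7 to the adult was -0.06 in these wells. Map1b had the highest stage value at E12, a single plate, and its lowest mean at E18, 2.09-fold apart, while P4 plate 2 and the E12 plate had about the same level, 3634 and 3632 CPM; Mapt had its highest on the E12 plate and its lowest mean in the adult, 3.88-fold apart. An edgeR test over the 7 stages with 2 plates called 9 of the 10 genes in Pou4f1-positive wells, where 49.4% of all 16353 genes tested were called. Mapt was the exception, with adjusted p = 0.208. In all kept wells 7 of 10 were called, against 46.4% of 17453 genes. There Map1b (adjusted p = 0.0911), Map2 (adjusted p = 0.0642) and Mapt (adjusted p = 0.445) missed the threshold of 0.05. Without wells of 5 or more myelin counts, Tubb4a no longer passed in all kept wells (edgeR adjusted p = 0.385). Nor did Tubb4a pass there with the replicate number as a block, as given below. With single plates left out, the number of the 10 genes called changed in both well sets. The number of all genes called changed too, as given below.

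**Figure D1:**
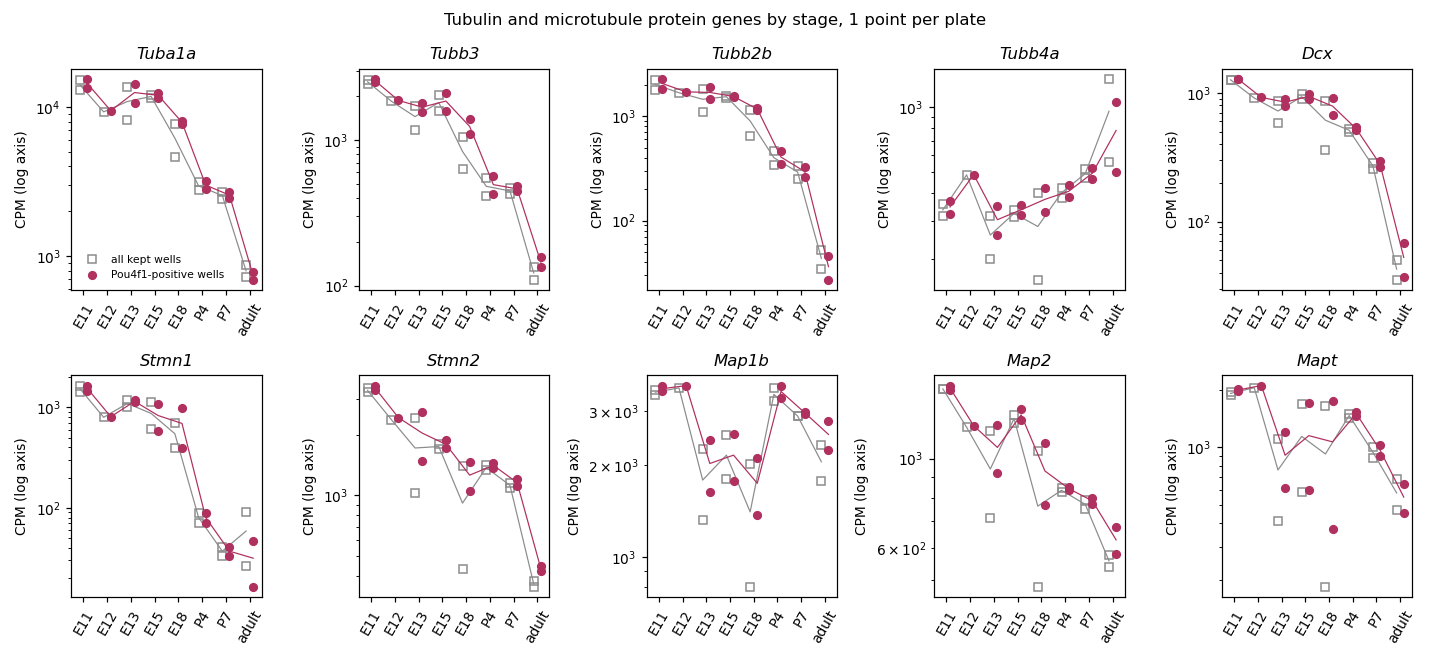
Level of each gene in CPM (log axis, scaled per panel) at 8 stages, 1 point per plate and a line through the stage means, in all kept wells (grey squares) and Pou4f1-positive wells (red circles). In the red circles Tuba1a, Tubb3 and Tubb2b are lower at P4 than at E18 and lower again in the adult, adult plate 1 is the highest point for Tubb4a, and for most genes the lower squares of E13 and E18 are E13 plate 2 and E18 plate 1.

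Tuba1a, which supplies the alpha subunit, stood at 13418 and 15544 CPM on the 2 E11 plates in Pou4f1-positive wells, at 9471 (95% exact Poisson interval 9382 to 9561) on the E12 plate, at 14329 and 10741 at E13 and at 12510.3 and 11489 at E15. It stood at 7757 and 8077 at E18, 3194 and 2803 on the P4 plates, 2449 and 2690.5 at P7 and 694 and 786 on the adult plates. All embryonic plates lay above all postnatal plates, and both adult plates lay below the P7 plates. From E11 to P4 Tuba1a fell with a log2 fold change of -2.22 ± 0.25, adjusted p = 7.11e-05 (edgeR, SE). From E18 to P4 it fell with -1.24 ± 0.25, adjusted p = 0.00523, and from P7 to the adult with -1.91 ± 0.25, adjusted p = 0.00203.

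Tubb3, the beta-tubulin used widely as a neuron marker, had 2503 and 2649.7 CPM at E11, 1875 (1836 to 1915) at E12, 1814 and 1562 at E13, 2120.4 and 1596 at E15 and 1389 and 1098 at E18 in Pou4f1-positive wells. After birth the plates read 565 and 425 on the P4 plates, 445 and 481 at P7 and 133 and 157 on the adult plates. The P4 and P7 plates overlapped, and each lay below every embryonic plate and above both adult plates. Plates of the second E18 set, compared below without a test, all lay below both E18 plates of the series and above the P4 and P7 plates. Its log2 fold change was -2.33 ± 0.24, adjusted p = 3.96e-05 from E11 to P4, -1.16 ± 0.24, adjusted p = 0.00583 from E18 to P4 and -1.78 ± 0.24, adjusted p = 0.00246 from P7 to the adult. Tubb2b, also a beta-tubulin gene, read 1826 and 2296 CPM at E11, 1714 (1676 to 1752) at E12, 1921 and 1465 at E13, 1541 and 1553 at E15 and 1149 and 1199 at E18. It read 468 and 345 on the P4 plates, 259.5 and 329 at P7 and 27.0 and 45.3 on the adult plates. Adult plate 1 gives the lowest of these values with an interval of 15.1 to 44.5 CPM. Tubb2b fell with a log2 fold change of -2.29 ± 0.29, adjusted p = 0.000148 from E11 to P4, -1.37 ± 0.28, adjusted p = 0.00652 from E18 to P4 and -3.04 ± 0.32, adjusted p = 0.000564 from P7 to the adult. In 15 series plates and all kept wells, the log2 levels of the 3 genes ran together, with Pearson r of 0.991 for Tuba1a and Tubb3, 0.988 for Tuba1a and Tubb2b and 0.984 for Tubb3 and Tubb2b; plates share library totals and stages, and no p is given.

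Tubb4a, the beta-tubulin of mature brain, read 371 and 322 CPM at E11, 488 (468 to 509) at E12, 349 and 257 at E13, 354 and 318 at E15 and 329 and 422 at E18 in Pou4f1-positive wells. It read 435 and 383 on the P4 plates, 526 and 465 at P7, and 1058 and 499.8 on the adult plates. Adult plate 1 lay above every other series plate, while adult plate 2 lay between the P7 plates. No pair of stages tested passed the threshold for Tubb4a: the log2 fold change was 0.30 ± 0.30, adjusted p = 0.487 from E11 to P4 and 0.50 ± 0.30, adjusted p = 0.395 from P7 to the adult. In all kept wells the adult plates read 1348 and 560.5 CPM and the P7 plates 517 and 469.

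Dcx, the doublecortin gene, read 1283 and 1291 CPM at E11, 923 (895 to 951) at E12, 896 and 798 at E13, 893 and 988 at E15 and 667 and 912 at E18 in Pou4f1-positive wells. The later plates read 512 and 539.5 on the P4 plates, 263 and 295 at P7 and 68.4 and 36.8 on the adult plates, with no overlap between these stages or with E18. Dcx fell with a log2 fold change of -1.23 ± 0.27, adjusted p = 0.00461 from E11 to P4 and -2.62 ± 0.30, adjusted p = 0.000815 from P7 to the adult. Between E18 and P4 it did not pass the threshold (-0.43 ± 0.27, adjusted p = 0.275).

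Stmn1, the general stathmin, read 1456 and 1646 CPM at E11, 806 (779.7 to 832) at E12, 1169.6 and 1123 at E13, 1069.9 and 586 at E15 and 989 and 393 at E18. It read 89.1 and 71.1 on the P4 plates, 33.0 and 41.2 at P7 and 46.8 and 16.4 on the adult plates, where counting error gives intervals of 30.6 to 68.5 and 12.7 to 20.9. The lowest embryonic plate lay above every postnatal plate, and the 2 plates of E15, of E18 and of the adult each differed by over 1.5 times. Stmn1 fell with a log2 fold change of -4.22 ± 0.47, adjusted p = 6.28e-05 from E11 to P4 and -2.91 ± 0.45, adjusted p = 0.00135 from E18 to P4. From P7 to the adult no change passed (-0.58 ± 0.48, adjusted p = 0.552). Stmn2, the growth cone stathmin, read 3497 and 3339.9 CPM at E11, 2426 (2381 to 2471) at E12, 2583 and 1484 at E13, 1870.1 and 1706 at E15, 1055 and 1462 at E18, 1373 and 1442 on the P4 plates, 1198 and 1113 at P7 and 444 and 423 on the adult plates. Unlike for Stmn1, the E18, P4 and P7 plates of Stmn2 lay close together, and both adult plates lay below all others. The log2 fold change of Stmn2 was -1.22 ± 0.29, adjusted p = 0.00791 from E11 to P4, 0.32 ± 0.29, adjusted p = 0.471 from E18 to P4 and -1.54 ± 0.30, adjusted p = 0.0157 from P7 to the adult. Whether the E18 to P4 changes of the 2 stathmins differ was not tested.

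Of the 3 microtubule-associated proteins, Map1b read 3611 and 3486 CPM at E11, 3632 (3577 to 3688) at E12, 2409 and 1632 at E13, 1775 and 2528 at E15, 1376 and 2105 at E18, 3318 and 3634 on the P4 plates, 2978 and 2943 at P7 and 2245 and 2786 on the adult plates. Among the series plates, those of E13 to E18 were lower than the E11, E12, P4 and P7 plates. Plates of the second E18 set, compared below without a test, all lay above both E18 plates of the series. They lay below both P4 plates, and the highest of them lay above both P7 plates. Map1b rose from E18 to P4 with a log2 fold change of 1.15 ± 0.32, adjusted p = 0.0243, while E11 and P4 differed by 0.03 ± 0.31, adjusted p = 0.953. Map2 read 1519 and 1477 CPM at E11, 1207 (1175 to 1239) at E12, 1213 and 920.2 at E13, 1324 and 1244 at E15, 769 and 1095 at E18, 851 and 835 on the P4 plates, 773 and 798 at P7 and 677 and 581 on the adult plates. Its steps between neighbouring stages were small, and Map2 fell with -0.77 ± 0.25, adjusted p = 0.0324 from E11 to P4.

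Mapt varied widely between plates of one stage. It read 2027 and 1991 CPM at E11, 2123 (2081 to 2165) at E12, 1207 and 613 at E13, 595 and 1715 at E15 and 373 and 1768 at E18 in Pou4f1-positive wells. It then read 1548 and 1472 on the P4 plates, 905 and 1033 at P7 and 642 and 452 on the adult plates. E13 plate 2, E15 plate 1 and E18 plate 1 lay well under the other plate of their stage, and the 5 E18 plates of C57BL/6 mice read 1622 to 1917 CPM, near E18 plate 2. The low values went with the running plate number in the deposited column names. Both E13 plates, E15 plate 1 and E18 plate 1 have the lowest numbers of the series and read 373 to 1207 CPM. The other embryonic series plates read 1715 to 2123 CPM. Whether a batch of plates had a part in this was not tested. No stage contrast passed for Mapt; from E18 to P4 the log2 fold change was 0.61 ± 0.62, adjusted p = 0.521, and leaving out 1 plate moved it from -0.12 (without E18 plate 1) to 2.32 (without E18 plate 2), which passed.

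The stage contrasts share plates, P4 in 3 of them and P7 in 2, so they are not independent of each other. From E11 to P4, in Pou4f1-positive wells, 7 of the 10 genes fell and 0 rose, where 30.6% of all genes were called, 14.3% falling and 16.3% rising. The median log2 fold change of the 10 was -1.23, against 0.00 over all genes tested. Over all kept wells 5 fell (background 11.1%) and 0 rose (background 13.2%, and 24.3% in either direction): Tuba1a, Tubb3, Tubb2b, Dcx and Stmn1. Tuba1a, Tubb3, Tubb2b and Stmn1 were called without each of the 4 plates in turn in both well sets. Dcx in Pou4f1-positive wells lost its call without either P4 plate, and Stmn2, Map2 and, in all kept wells, Dcx lost theirs without any 1 of the 4 plates. Their log2 fold changes moved little over all alternatives, from -1.28 to -1.15 for Stmn2 and -0.80 to -0.75 for Map2 in Pou4f1-positive wells and from -1.30 to -1.15 for Dcx in all kept wells. Dcx in all kept wells also missed the threshold with at least 2000 counts per well (edgeR adjusted p = 0.0532), without likely doublets (0.0792), without wells of 5 or more myelin counts (0.058) and with the replicate number as a block (0.0556).

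From E18 to P4, in Pou4f1-positive wells, Tuba1a, Tubb3, Tubb2b and Stmn1 fell and Map1b rose, so 4 genes fell (background 10.4%) and 1 rose (background 9.97%, and 20.4% in either direction). In all kept wells Stmn1 fell with -2.53 ± 0.49, adjusted p = 0.00693 and Map1b rose with 1.46 ± 0.46, adjusted p = 0.0461, 1 gene each way against backgrounds of 10.4% lower and 9.20% higher (19.6% together). Over all kept wells Map1b missed the threshold with the replicate number as a block (edgeR adjusted p = 0.0507), with RLE scaling (0.0543), with at least 2000 counts per well (0.0599) and without wells of 5 or more myelin counts (0.141), and it was called in 5 of 13 alternatives. The calls also changed when single plates were left out. In Pou4f1-positive wells Tuba1a lost its call without either P4 plate, and Tubb3 and Tubb2b lost theirs without P4 plate 2. Stmn1 kept its call, and fewer of all genes were called in these fits than in the main fit. The log2 fold changes there ran, over all alternatives, from -1.37 to -1.07 for Tuba1a, -1.35 to -0.88 for Tubb3 and -1.53 to -1.09 for Tubb2b. Map1b lost its call in Pou4f1-positive wells without E18 plate 1 or either P4 plate, its log2 fold change running from 0.83 to 1.64. Over all kept wells Stmn1 and Map1b lost their calls without either P4 plate, where fewer of all genes were called too. Over all alternatives in all kept wells, the log2 fold change ran from -2.76 to -2.17 for Stmn1 and from 0.89 to 2.47 for Map1b. Without E18 plate 1, Tuba1a, Tubb2b and Stmn1 were called there, with 1669 of 19615 genes in all. Without E18 plate 2 it was 7 genes, Tubb4a, Dcx, Stmn1, Stmn2, Map1b, Map2 and Mapt, with 5695 of 19982 genes in all. Without E18 plate 2 only Stmn1 of those named fell, while Tubb4a, Dcx, Stmn2, Map1b, Map2 and Mapt rose. The log2 fold change of Dcx was then 0.89, against -0.08 in the main fit. E18 plate 1 is the plate with the higher progenitor sum, and the part of this in the contrast was not tested.

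From P4 to P7 none of the 10 genes passed in either well set. Among all genes 1 rose and 0 fell in each, which is 0.00612% of those tested in Pou4f1-positive wells and 0.00573% in all kept wells. By edgeR 551 and 475 genes had an unadjusted p under 0.05, Dcx and Stmn1 among them in both well sets, and DESeq2 called 39 and 22 genes. A fit of the 4 plates alone called 3 of the 10 in each well set (Dcx, Stmn1 and Mapt), and 600 of 14359 and 541 of 14871 genes. Dcx stood at 526 ± 19.5 CPM at P4 and 279 ± 22.3 CPM at P7 (mean ± SD, 2 plates each; log2 fold change -0.91 ± 0.27, adjusted p = 0.941). Stmn1 stood at 80.1 ± 12.7 and 37.1 ± 5.81 CPM (log2 fold change -1.10 ± 0.43, adjusted p = 1).

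From P7 to the adult 5 genes fell in Pou4f1-positive wells (background 2.34%) and 0 rose (background 1.35%, and 3.68% in either direction; among all genes 220 rose and 382 fell, and with RLE scaling 291 and 316): Tuba1a, Tubb3, Tubb2b, Dcx and Stmn2. Over all kept wells the first 4 fell (background 1.82%) and 0 rose (background 1.76%, and 3.58% in either direction), Tubb2b with -2.82 ± 0.42, adjusted p = 0.00892 and Dcx with -2.81 ± 0.44, adjusted p = 0.011. In Pou4f1-positive wells Tuba1a, Tubb3, Tubb2b and Dcx were called without each of the 4 plates in turn, and Stmn2 lost its call without either P7 plate or adult plate 1. Stmn2 was called in 10 of 14 alternatives there, with log2 fold changes from -1.60 to -1.41. Over all kept wells these 4 genes lost their calls without either P7 plate or adult plate 1, where fewer of all genes were called too. Without adult plate 2, Tuba1a alone of the 4 lost its call. Without wells of 5 or more myelin counts, 0 of the 10 were called over all kept wells, with 35 genes called in all and 6 wells kept on adult plate 1; the log2 fold changes were then -1.86 for Tuba1a, -2.16 for Tubb3, -2.09 for Tubb2b and -3.33 for Dcx. Over all alternatives they ran from -1.88 to -1.69 for Tuba1a, -2.24 to -1.87 for Tubb3, -3.14 to -2.09 for Tubb2b and -3.43 to -2.48 for Dcx, all below 0.

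**Figure D2:**
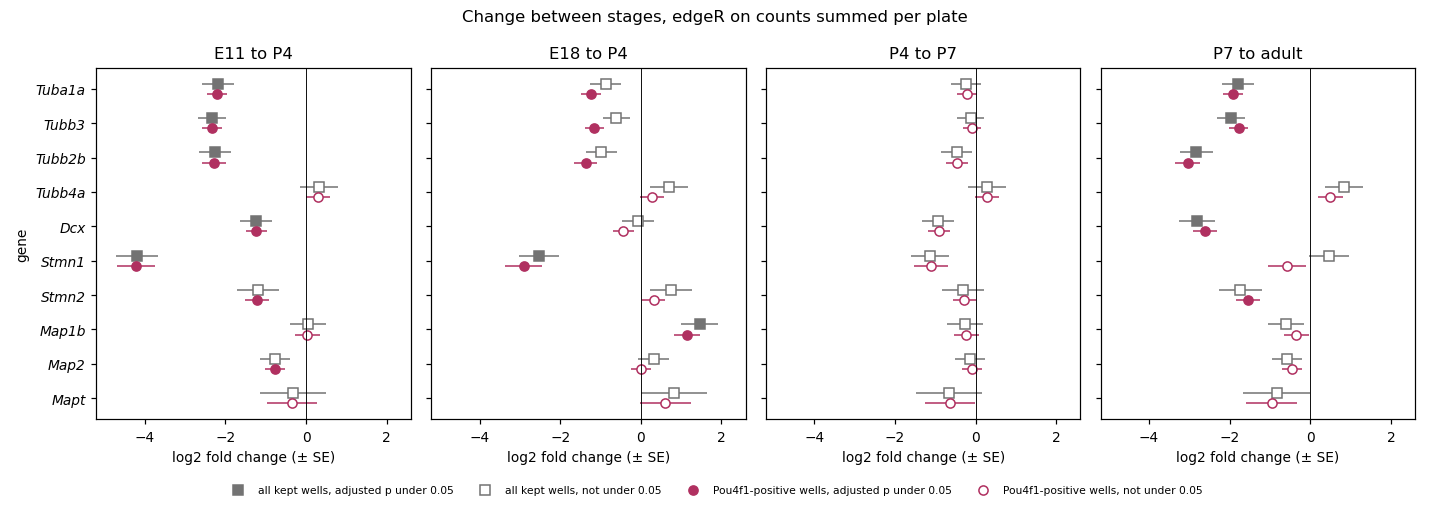
log2 fold change ± SE (edgeR on counts summed per plate) of the 10 genes in 4 stage contrasts, in all kept wells (grey squares) and Pou4f1-positive wells (red circles), filled where the adjusted p was under 0.05. Tuba1a, Tubb3 and Tubb2b lie left of 0 in all 4 panels, Map1b lies right of 0 from E18 to P4, and no symbol is filled from P4 to P7.

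A further 60 genes of tubulins, tubulin folding, tubulin modification and microtubule binding were counted beside the 10, of which 59 could be tested in the series. From E11 to P4, 7 rose and 17 fell in Pou4f1-positive wells, where 16.3% and 14.3% of all genes did, and 7 rose and 12 fell in all kept wells, where 13.2% and 11.1% did. The largest changes were those of the alpha-tubulin gene Tuba1c (-4.62 ± 0.65, adjusted p = 0.000401), the alpha-tubulin gene Tuba4a (3.26 ± 0.39, adjusted p = 9.36e-05) and Vash2, a tubulin carboxypeptidase gene (-2.67 ± 0.30, adjusted p = 6.46e-05), as log2 fold changes in Pou4f1-positive wells. From E18 to P4, 9 rose and 3 fell in Pou4f1-positive wells (all genes 9.97% and 10.4%), with Tppp, a gene for a tubulin polymerization-promoting protein, at 3.29 ± 0.52, adjusted p = 0.00161, Tuba4a at 2.59 ± 0.48, adjusted p = 0.00361 and Tuba1c at -3.09 ± 0.84, adjusted p = 0.0244. The counts were 8 and 3 over all kept wells (all genes 9.20% and 10.4%). Among alpha-tubulin genes in Pou4f1-positive wells, Tuba1a and Tuba1c, which share 3′ sequence, thus fell from E18 to P4 while Tuba4a rose; over all kept wells Tuba1a was at -0.87 ± 0.38, adjusted p = 0.123 by edgeR. From P7 to the adult, 2 rose and 12 fell in Pou4f1-positive wells (all genes 1.35% and 2.34%), with the collapsin response mediator genes Dpysl3 (-2.92 ± 0.33, adjusted p = 0.000787) and Crmp1 (-1.91 ± 0.37, adjusted p = 0.0157) and the plus-end binding gene Mapre1 (-1.81 ± 0.23, adjusted p = 0.00175) changing most. Over all kept wells 3 rose and 9 fell (all genes 1.76% and 1.82%), and Tppp (1.75 ± 0.36, adjusted p = 0.0276) and Map7 (1.75 ± 0.41, adjusted p = 0.042) were among those that rose. From P4 to P7, 0 of 59 passed in either well set by edgeR.

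The share of Pou4f1-positive wells with a UMI was compared after each well was thinned to 2000 UMIs. Dcx was seen in 87.6% and 91.7% of wells at E11, 64.9% and 76.6% at E18, 57.3% and 63.6% on the P4 plates, 41.2% and 44.0% at P7 and 5.26% and 7.87% on the adult plates (95% exact binomial intervals 0.133 to 26.0% and 4.37 to 12.8%). The comparison class, chosen after the data had been seen, was the Pou4f1-negative wells with 50 or more counts of myelin genes, which should lack Dcx; adult plate 2 had 25 of them, and adult plate 1 too few for a share after thinning. Dcx was seen in 0 of these 25 wells (exact upper limit 13.7%), an interval that overlaps that of the Pou4f1-positive wells on adult plate 2, with no test between the classes. These binomial intervals cover only the sampling of wells within a single plate, not the spread between plates. Without thinning the shares on adult plate 2 were 47.2% in Pou4f1-positive wells, at a median of 22338 counts, and 0% in the comparison class, at 6819 counts. In summed counts Dcx stood at 36.8 CPM (31.1 to 43.3) in Pou4f1-positive wells of adult plate 2, against 0 in 162999 counts of the comparison class (upper limit 22.6 CPM). Tubb2b was seen in 95.1% and 97.0% at E11, 86.5% and 86.2% at E18, 61.1% and 46.0% on the P4 plates, 35.5% and 54.5% at P7 and 5.26% and 5.06% on the adult plates, against 1 of 25 wells (exact interval 0.101 to 20.4%) in the comparison class. Tubb3 kept 26.3% and 27.0% on the adult plates, against 16% (4.54 to 36.1%) in the comparison class, from 95.1% and 99.0% at E11 and 50.0% and 57.6% at P7. For Stmn1 the shares were 90.8% and 95.7% at E11, 14.9% and 12.7% on the P4 plates, 6.42% and 7.39% at P7 and 10.5% and 2.25% on the adult plates, where the comparison class had 32% (14.9 to 53.5%). Tubb4a was seen in 49.8% and 43.7% at E11, 62.5% and 56.8% at P7 and 94.7% and 61.8% on the adult plates, and in 25 of 25 wells of the comparison class. Map1b stayed at 87.8% or more of Pou4f1-positive wells on every series plate.

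The deposited split into spliced and unspliced transcripts gave the share of each gene's counts from unspliced transcripts. For Tuba1a, Tubb2b and Stmn1 at most 2.4% of counts were unspliced in Pou4f1-positive wells of the series, and for Tubb4a at most 3.5%. Map2, a gene of 267311 bases, had 24.2 to 46.6%. Dcx had 11.4 to 19.4% from E11 to P7, and 68.4% and 44.6% in the adult. The adult values rest on 38 and 148 counts of Dcx, on the plates where its level was lowest, and whether the share changed was not tested.

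Pou4f1-positive wells were compared with Pou4f1-negative wells of the same plate over 15 plates. In all, 9 of the 10 genes were higher in the positive wells, where 40.4% of 14476 genes were called, 20.5% being higher and 19.9% lower. With RLE scaling, which moved the median log2 fold change of all genes from 0.07 to -0.08, 2061 genes were higher and 3399 lower in place of 2965 and 2883, and the same 9 of the 10 passed. The log2 fold change was 1.78 ± 0.21, adjusted p = 2.62e-06 for Stmn2 and 1.53 ± 0.21, adjusted p = 1.67e-05 for Tubb3, each higher on 15 of 15 plates. It was 1.52 ± 0.24 for Mapt, 1.38 ± 0.18 for Map1b, 1.35 ± 0.23 for Dcx, 0.88 ± 0.22 for Tubb4a, 0.88 ± 0.13 for Map2, 0.77 ± 0.19 for Tubb2b and 0.76 ± 0.15 for Tuba1a, higher on 11 to 14 plates. For Stmn1 it was 0.02 ± 0.22, adjusted p = 0.959, higher on 8 of 15 plates. The median count per well was higher in positive than in negative wells on all 15 plates (16290 against 7702 on E11 plate 1, for example), and a well with few counts can miss Pou4f1. After thinning to 2000 UMIs, with the classes set anew, the log2 fold changes were smaller, at 0.52 for Stmn2, 0.37 for Tubb3, 0.45 for Mapt, 0.42 for Map1b, 0.35 for Dcx and 0.28 for Tuba1a, and Tubb4a, at 0.26, did not pass (edgeR adjusted p = 0.133). Wells that lost their Pou4f1 count on thinning joined the negative class, which by itself makes differences smaller. This fit therefore cannot tell how much of the difference came from depth.

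The size of this class difference varied with stage for 4 genes, by an edgeR interaction test added after the data had been seen, which called 4.40% of 10214 genes. With single plates left out, Mapt and Stmn1 kept the call each time. Map1b and Tubb4a lost it more often than they kept it. For Mapt the log2 fold change, positive over negative wells, was 2.19 at E11, 1.58 at E13, 0.20 at E15, 2.34 at E18, 2.07 on the P4 plates, 1.44 at P7 and -0.28 in the adult, so it was near 0 at E15 as well as in the adult. For Stmn1 it was 0.57 at E11, 0.19 at E13, -0.68 at E15, 0.50 at E18, 0.04 on the P4 plates, 0.10 at P7 and -2.10 in the adult, with E15 and the adult below 0. For Tubb4a it was 1.39 at E11, 1.17 at E13, 0.68 at E15, 1.83 at E18, 1.19 on the P4 plates, 0.32 at P7 and -0.86 in the adult. For Map1b it was 1.07 at E11, 0.81 at E13, 0.08 at E15, 1.46 at E18, 1.79 on the P4 plates, 1.35 at P7 and 2.39 in the adult. Adult negative wells carried 27906 (plate 1) and 11037 (plate 2) CPM of the 8 oligodendrocyte markers. A fit without wells of 5 or more myelin counts had 13 plates. Adult plate 1 dropped out of it, since all 21 of its Pou4f1-positive wells held such counts, so both the wells and the adult plates changed. The adult differences, now from adult plate 2 alone, were 1.45 for Mapt, -0.43 for Stmn1 and 1.49 for Tubb4a. The E15 differences of Mapt and Stmn1 stayed at 0.20 and -0.68. For Map1b the differences stayed at 0.08 at E15 and 2.17 in the adult. The edgeR interaction then missed the threshold for all 4 genes, narrowly for Mapt (adjusted p = 0.0507) and Map1b (adjusted p = 0.0506), and passed for Dcx (adjusted p = 0.04). After thinning to 2000 UMIs, with the classes set anew, 111 of 4616 genes passed and most differences were smaller. Mapt then stood at 0.59 at E11, 0.27 on the P4 plates and -0.32 in the adult (edgeR adjusted p = 0.217). Map1b stood at 0.39, 0.23 and 0.63 (adjusted p = 0.644), and Stmn1 at 0.09, -0.56 and -1.43 (adjusted p = 0.531). Tubb4a, at 0.53, 0.17 and -0.40, passed (edgeR adjusted p = 0.0357). Wells that lost their Pou4f1 count on thinning joined the negative class here too, so the smaller differences do not measure depth alone.

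**Figure D3:**
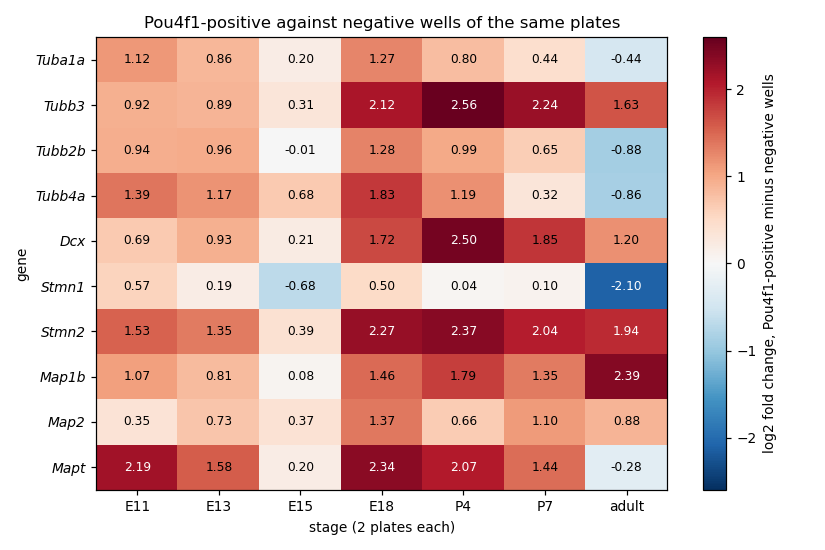
log2 fold change between Pou4f1-positive and Pou4f1-negative wells of the same plates (edgeR, plate as block), by gene and stage with 2 plates each. Most values are above 0, and Tuba1a, Tubb2b, Tubb4a, Stmn1 and Mapt are below 0 in the adult.

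Wells rich in myelin transcripts were set apart on the adult plates; the genes given here were chosen after their values had been seen. Of the wells with 50 or more myelin counts, 11 of 25 on adult plate 1 and 2 of 27 on adult plate 2 were Pou4f1-positive, so the 14 and 25 Pou4f1-negative wells are used here. They held 3999 (3596 to 4435) and 3763 (3471 to 4073) CPM of Tubb4a, against 546 CPM (511 to 581) in the 99 Pou4f1-positive wells of adult plate 2 with under 5 myelin counts. They held 457 and 307 CPM of Stmn1, against 13.1 CPM (8.32 to 19.7). Mapt stood at 1387 and 1776 CPM, against 503. Tubb3 stood at 22.3 and 55.2 CPM, against 155, and Map1b at 368 and 307, against 2656. On both plates Tubb4a, Stmn1 and Mapt thus read higher, and Tubb3 and Map1b lower, than in those Pou4f1-positive wells, without a test. Intervals cover counting error only, and adult plate 1 had no Pou4f1-positive well with under 5 myelin counts. In all kept wells without wells of 5 or more myelin counts, the log2 fold change from P7 to the adult was -0.34 for Tubb4a and -1.59 for Stmn1, in place of 0.84 and 0.46, none of them past the threshold.

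**Figure D4:**
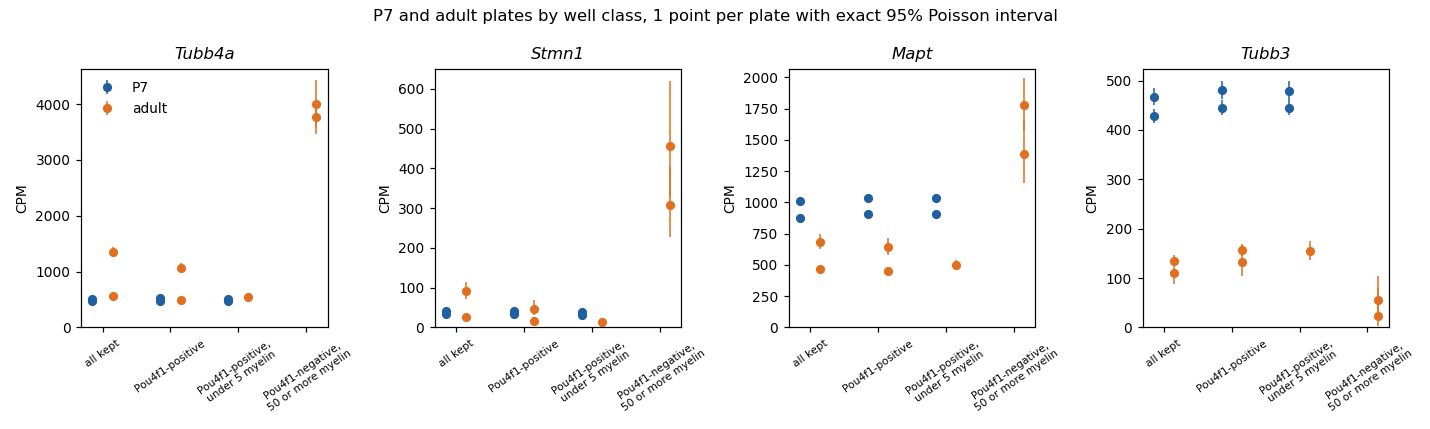
CPM of Tubb4a, Stmn1, Mapt and Tubb3 on P7 (blue) and adult (orange) plates in 4 classes of wells, 1 point per plate with its 95% exact Poisson interval, for classes of 10 or more wells on a plate. The adult Pou4f1-negative wells with 50 or more myelin counts hold the highest values of Tubb4a (3999 and 3763), Stmn1 (457 and 307) and Mapt, while Tubb3 is low in every adult class.

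Between left and right habenula at E18, none of the 10 genes passed the test. Of 14614 genes in Pou4f1-positive wells and 15489 in all kept wells, edgeR called 0 (0% in both), with 155 and 182 genes and none of the 10 at an unadjusted p under 0.05, and DESeq2 called 0 and 1. With the plate number as a block edgeR called 0 and 6, none of them among the 10. Among Pou4f1-positive wells Tuba1a read 6942 and 6312 CPM on the left plates and 6884 and 7435 on the right plates, a right minus left log2 fold change of 0.08 ± 0.16, adjusted p = 1. Tubb3 read 678 and 669 CPM on the left and 664 and 796 on the right, with 0.09 ± 0.17, adjusted p = 1, and Map1b read 2618 and 2767 on the left and 2597 and 2508 on the right, with -0.11 ± 0.17, adjusted p = 1. For the other 7 genes the log2 fold change lay between -0.04 ± 0.19 (Tubb4a) and 0.08 ± 0.17 (Dcx); no standard error there exceeded 0.19. The left plates carried, over all kept wells, 19048 and 17219 CPM of 5 erythroid markers and the right plates 3410 and 265, and the part of these in the contrast was not tested.

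The 2 E18 plates of the Brn3a-tauLacZ line and the 5 E18 plates of C57BL/6 mice were counted in separate tables, so their levels are set side by side with no test. In Pou4f1-positive wells Tubb3 read 1389 and 1098 CPM on the series plates and 598 to 796 on the 5 others, with no overlap. Tubb2b read 1149 and 1199 CPM, against 1715 to 2073 for left and right habenula, while the plate holding both sides had 1138. Map1b read 1376 and 2105 CPM, both under the 2508 to 3202 of the 5 others. Stmn1 read 989 and 393 CPM, a span that held the left and right plates at 557 to 741. The plate of both sides had 253. Only part of the gene set is named here, and no share of all genes without overlap is given for comparison. Whether a gap is specific to a gene or to the mouse line was not tested.

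**Figure D5:**
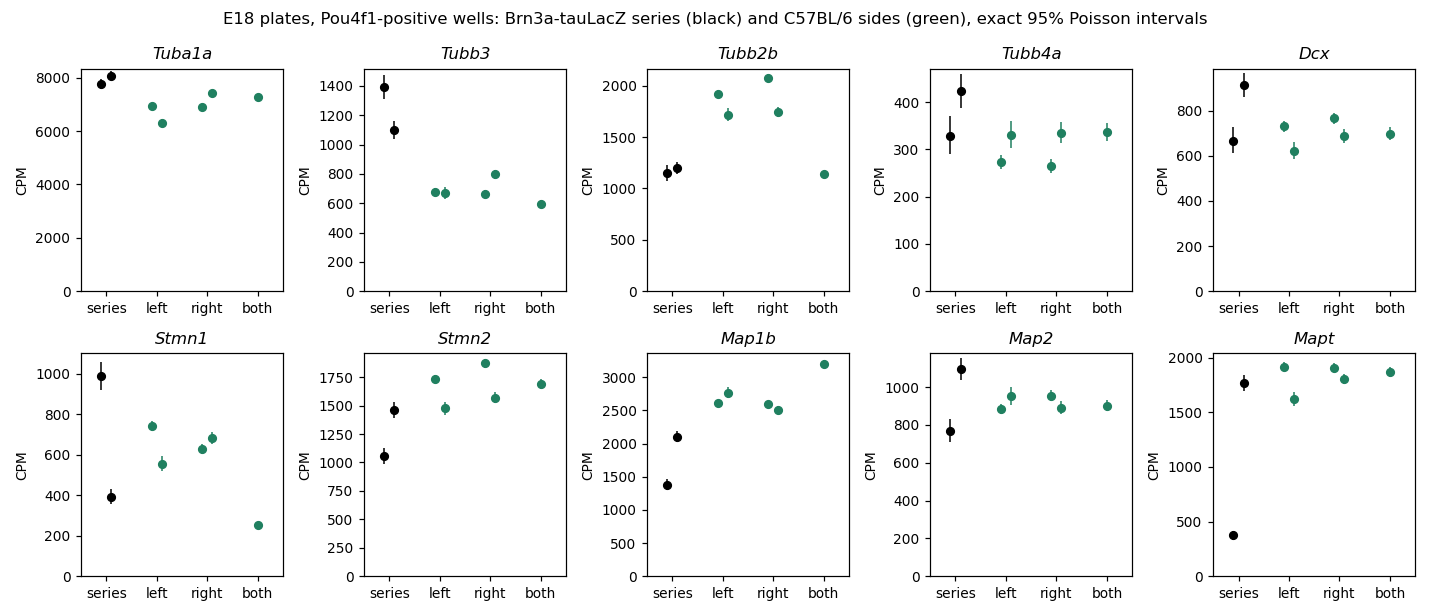
CPM in Pou4f1-positive wells on the E18 plates of the developmental series (black) and on the left, right and both-sides plates of C57BL/6 mice (green), 1 point per plate with its 95% exact Poisson interval. Left and right plates overlap for most genes, and the series plates lie above the others for Tubb3 and below them for Map1b.

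For each of the 10 genes the gene outside the set with the most similar pattern was found among 8483 genes with a mean of 20 CPM or more, by Pearson r of log2(CPM + 1) over 15 plates in all kept wells. It was Tubb5, another beta-tubulin gene, for Tuba1a (r = 0.992), Basp1 for Tubb3 (r = 0.990) and for Tubb2b (r = 0.992), Wdr26 for Dcx (r = 0.986) and Map4k4 for Stmn1 (r = 0.991). It was Ptbp2 for Stmn2 (r = 0.967), Stmn3 for Map1b (r = 0.960), Tmem57 for Map2 (r = 0.961), Phactr1 for Mapt (r = 0.966) and Aplp1 for Tubb4a (r = 0.962). Plates share stages and library totals, and these values are a description.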

How the data were processed

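Habenula cells were counted by CEL-seq2 on 20 plates of 384 wells; each plate is 1 replicate. Per the submitters' processing notes, reads were handled with Trim Galore and STAR 2.5.3a on mm10; for the counting program and its use of strand, no source used here gives a statement. Expected counts are what the authors deposited: UMI numbers corrected for collisions among UMIs of 6 bases, as 100% of values came out whole when that correction was undone (tolerance 1e-06). Whole counts had been planned for; these values were summed per plate and rounded. The 92 spike-in rows were left out. Wells were kept with at least 1000 counts outside mitochondrial and spike-in rows, 500 genes and at most 20% mitochondrial counts. No doublet caller was run; wells over 3 times their plate's median were left out in an alternative. CPM was computed per plate. Stages were compared with edgeR 4.0.16 (R 4.3.3) quasi-likelihood tests, filterByExpr, TMM and Benjamini-Hochberg adjustment over all genes, on 14 series plates; the E12 plate has no second plate and stayed out. The SE is the fold change over the root of F. The Pou4f1 class test had the plate as block. Alternatives were DESeq2 1.42.0, RLE scaling, no low-count filter, recovered UMI numbers, at least 2000 counts per well, at least 2 counts of Pou4f1, wells with myelin counts left out, thinning, a replicate block, the 4 plates alone and each plate left out. The edgeR fit was checked on simulated counts for E11 to P4, with the same spread for all genes and plates. It found 93% of 200 changed genes and made 10 false calls, among 14364 genes. The real plates differ in spread, so these rates need not hold for them. The title of 1 plate gives another stage than its other labels, E18, which were used. All 10 genes are named. Of the 60 others, the 3 with the largest change past the threshold are named for each stage contrast in Pou4f1-positive wells and for the class test. For all kept wells only genes that rose from P7 to the adult are named, and these need not be the largest changes. The genes and lists were chosen with earlier results of these data known.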

Additional observations from a re-analysis of the deposited data

Results flagged for a closer look

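For 4 of the 10 genes, the difference between Pou4f1-positive and Pou4f1-negative wells of the same plates varied with stage, by an edgeR interaction test with Benjamini-Hochberg adjustment that was added after the data had been seen. Among all 10214 genes tested, 4.40% were called. For Mapt the adjusted p was 0.00794, with a log2 fold change of 0.20 at E15, 1.44 at P7 and -0.28 in the adult. For Stmn1 it was 0.00946, with -0.68, 0.10 and -2.10, and for Tubb4a 0.0485, with 0.68, 0.32 and -0.86. For Map1b it was 0.0286, with 0.08 at E15 and 2.39 in the adult. With each of 14 plates left out in turn, Mapt and Stmn1 passed 14 times, Map1b 6 times and Tubb4a 4 times. Without wells of 5 or more myelin counts the adjusted p was 0.569 for Stmn1, with -0.43 in the adult, and 0.901 for Tubb4a, with 1.49. It was 0.0507 for Mapt, with 1.45. For Map1b it was 0.0506, while its differences stayed at 0.08 at E15 and 2.17 in the adult. Dcx passed in that fit, with an adjusted p of 0.04. The adult values of that fit rest on adult plate 2 alone, since adult plate 1 had no Pou4f1-positive well with under 5 myelin counts. After thinning to 2000 UMIs, with the classes set anew, 111 of all genes tested passed. The adjusted p of the edgeR interaction was then 0.217 for Mapt, 0.531 for Stmn1, 0.0357 for Tubb4a and 0.644 for Map1b.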

How the results depend on the processing

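Of 410 recomputed counts of calls, 302 stayed within 1.5 times, and of 453 recomputed log2 fold changes of the 10 genes that had passed the test, 394 stayed past the threshold and 0 changed sign. The cause of the moves below was not tested. Where a count of the 10 genes stands below without one of all genes, the latter stayed within 1.5 times the main fit. From E18 to P4 in all kept wells, the main fit called 3421 of 17453 genes and DESeq2 4086 of 17453. With no filter on low counts it was 4820 of 37590. When 1 plate is left out, the fit takes the spread of the remaining plate of that stage from the other stages. That also holds for Pou4f1-positive wells without wells of 5 or more myelin counts, where adult plate 2 alone is left for the adult. Fits of 4 plates alone tested 15048 genes from E11 to P4, 14765 from E18 to P4 and 14871 from P4 to P7 (all kept). In Pou4f1-positive wells they tested 14726, 13701 and 14359, and 14250 from P7 to the adult. With only the 4 plates compared, the number of the 10 genes called was 9 (E11 to P4, all kept), 1 (E18 to P4, all kept), 3 (P4 to P7, all kept), 3 (E18 to P4, Pou4f1-positive), 3 (P4 to P7, Pou4f1-positive); the number of all genes called was 8777 (E11 to P4, all kept), 528 (E18 to P4, all kept), 541 (P4 to P7, all kept), 8897 (E11 to P4, Pou4f1-positive), 1938 (E18 to P4, Pou4f1-positive), 600 (P4 to P7, Pou4f1-positive), 116 (P7 to adult, Pou4f1-positive); the log2 fold change turned to -0.00053 (Map1b, E11 to P4, all kept), -0.075 (Map2, E18 to P4, Pou4f1-positive). Without wells of 5 or more myelin counts, the number of the 10 genes called was 1 (E18 to P4, all kept), 0 (P7 to adult, all kept), 1 (class by stage); the number of all genes called was 0 (P4 to P7, all kept), 35 (P7 to adult, all kept), 3 (P4 to P7, Pou4f1-positive), 189 (P7 to adult, Pou4f1-positive); the log2 fold change turned to -0.016 (Map1b, E11 to P4, all kept), -0.34 (Tubb4a, P7 to adult, all kept), -1.59 (Stmn1, P7 to adult, all kept), -0.059 (Tubb4a, left to right, all kept), -0.0057 (Stmn2, left to right, all kept), -0.013 (Mapt, left to right, all kept). With DESeq2, the number of the 10 genes called was 4 (E18 to P4, all kept); the number of all genes called was 22 (P4 to P7, all kept), 1411 (P7 to adult, all kept), 1 (left to right, all kept), 39 (P4 to P7, Pou4f1-positive), 1226 (P7 to adult, Pou4f1-positive); the log2 fold change turned to -0.0016 (Map1b, E11 to P4, Pou4f1-positive), -0.066 (Map2, E18 to P4, Pou4f1-positive), -0.13 (Stmn1, Pou4f1 class). With RLE scaling, the number of the 10 genes called was 1 (E18 to P4, all kept); the log2 fold change turned to -0.0016 (Map1b, E11 to P4, Pou4f1-positive), -0.065 (Map2, E18 to P4, Pou4f1-positive), -0.13 (Stmn1, Pou4f1 class). With no filter on low counts, the number of the 10 genes called was 6 (E18 to P4, all kept), 1 (P4 to P7, Pou4f1-positive); the number of all genes called was 136 (P4 to P7, all kept), 1766 (P7 to adult, all kept), 37 (left to right, all kept), 136 (P4 to P7, Pou4f1-positive), 1465 (P7 to adult, Pou4f1-positive), 28 (left to right, Pou4f1-positive); the log2 fold change turned to 0.015 (Dcx, E18 to P4, all kept), 0.020 (Stmn1, left to right, all kept), 0.026 (Map2, left to right, all kept), 0.031 (Tubb4a, left to right, Pou4f1-positive), 0.043 (Stmn1, left to right, Pou4f1-positive), 0.046 (Map2, left to right, Pou4f1-positive). With at least 2000 counts per well, the number of the 10 genes called was 1 (E18 to P4, all kept). With the replicate number as a block, the number of the 10 genes called was 1 (E18 to P4, all kept); the number of all genes called was 6 (left to right, all kept); the log2 fold change turned to 0.017 (Stmn1, left to right, all kept). Without likely doublets, the number of all genes called was 0 (P4 to P7, all kept), 6 (P4 to P7, Pou4f1-positive), 394 (P7 to adult, Pou4f1-positive); the log2 fold change turned to 0.0071 (Map2, left to right, all kept). With at least 2 counts of Pou4f1, the number of all genes called was 2 (P4 to P7, Pou4f1-positive), 917 (P7 to adult, Pou4f1-positive); the log2 fold change turned to -0.0086 (Map1b, E11 to P4, Pou4f1-positive), -0.073 (Map2, E18 to P4, Pou4f1-positive), 0.030 (Tubb4a, left to right, Pou4f1-positive). With wells thinned to 2000 UMIs, the number of the 10 genes called was 1 (class by stage); the number of all genes called was 1114 (Pou4f1 class), 111 (class by stage); the log2 fold change turned to -0.043 (Stmn1, Pou4f1 class). The number of the 10 genes called with 1 plate left out ran from 4 to 4 (E11 to P4, all kept), 0 to 7 (E18 to P4, all kept), 0 to 3 (P7 to adult, all kept), 5 to 10 (any stage, all kept), 4 to 5 (E11 to P4, Pou4f1-positive), 1 to 6 (E18 to P4, Pou4f1-positive), 4 to 5 (P7 to adult, Pou4f1-positive), 7 to 10 (any stage, Pou4f1-positive), 2 to 5 (class by stage). The number of all genes called ran from 1535 to 1875 (E11 to P4, all kept), 574 to 5695 (E18 to P4, all kept), 0 to 0 (P4 to P7, all kept), 27 to 1074 (P7 to adult, all kept), 5626 to 10473 (any stage, all kept), 18 to 39 (left to right, all kept), 2373 to 2522 (E11 to P4, Pou4f1-positive), 1123 to 3265 (E18 to P4, Pou4f1-positive), 0 to 1 (P4 to P7, Pou4f1-positive), 88 to 1292 (P7 to adult, Pou4f1-positive), 6222 to 8910 (any stage, Pou4f1-positive), 5 to 81 (left to right, Pou4f1-positive), 215 to 729 (class by stage). Log2 fold changes whose sign changed when 1 plate was left out ran from -0.043 to 0.17 (Map1b, E11 to P4, all kept), -0.63 to 0.89 (Dcx, E18 to P4, all kept), -0.20 to 1.17 (Map2, E18 to P4, all kept), -0.051 to 3.37 (Mapt, E18 to P4, all kept), -0.28 to 0.051 (Tubb3, P4 to P7, all kept), -0.62 to 1.25 (Stmn1, P7 to adult, all kept), -0.14 to 0.25 (Tubb2b, left to right, all kept), -0.091 to 0.14 (Tubb4a, left to right, all kept), -0.063 to 0.25 (Dcx, left to right, all kept), -0.22 to 0.29 (Stmn1, left to right, all kept), -0.14 to 0.29 (Stmn2, left to right, all kept), -0.17 to 0.012 (Map1b, left to right, all kept), -0.10 to 0.086 (Map2, left to right, all kept), -0.12 to 0.26 (Mapt, left to right, all kept), -0.064 to 0.13 (Map1b, E11 to P4, Pou4f1-positive), -0.27 to 0.44 (Map2, E18 to P4, Pou4f1-positive), -0.12 to 2.32 (Mapt, E18 to P4, Pou4f1-positive), -0.27 to 0.095 (Tubb3, P4 to P7, Pou4f1-positive), -0.062 to 0.99 (Tubb4a, P7 to adult, Pou4f1-positive), -1.24 to 0.23 (Stmn1, P7 to adult, Pou4f1-positive), -0.023 to 0.21 (Tubb3, left to right, Pou4f1-positive), -0.088 to 0.19 (Tubb2b, left to right, Pou4f1-positive), -0.20 to 0.15 (Tubb4a, left to right, Pou4f1-positive), -0.0017 to 0.18 (Dcx, left to right, Pou4f1-positive), -0.16 to 0.17 (Stmn1, left to right, Pou4f1-positive), -0.056 to 0.22 (Stmn2, left to right, Pou4f1-positive), -0.11 to 0.084 (Map2, left to right, Pou4f1-positive), -0.027 to 0.13 (Mapt, left to right, Pou4f1-positive). Plate numbers were not taken as pairs, since no label ties same-numbered plates to a shared animal or day: over 21 pairs of stages, the correlation of same-numbered plates ran from -0.50 to 0.43, with 7 over 0.1. For the left and right plates the single pair correlated at 0.27, too little to tell whether their numbers pair them; there the block moved the number of all genes called from 0 to 6 in all kept wells and left it at 0 in Pou4f1-positive wells. With the block, Dcx (E11 to P4, all kept, adjusted p = 0.0556), Map1b (E18 to P4, all kept, adjusted p = 0.0507) and Tubb4a (any stage, all kept, adjusted p = 0.0625) missed the threshold by edgeR, and no other call on the 10 genes changed. Depth was lowest in the 21 Pou4f1-positive wells of adult plate 1, with 556190 counts, where Tubb2b, Dcx and Stmn1 rest on 15, 38 and 26 counts; adult plate 2 had 4018716 counts in 180 wells.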

Other observations

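Other tubulin and microtubule genes also differed between the well classes. Of 59 tested beside the 10, 38 were higher and 3 lower in Pou4f1-positive than in Pou4f1-negative wells of the same plate, where 20.5% of all 14476 genes were higher and 19.9% lower. With RLE scaling it was 33 higher and 4 lower, where 14.2% and 23.5% of all genes were. Positive wells held more counts per well. After thinning to 2000 UMIs, with the classes set anew, 11 of 54 were higher and 2 lower, where 4.19% and 8.40% of 8845 genes were. Wells that lost their Pou4f1 count on thinning joined the negative class, which by itself makes differences smaller. Map7d2, of a family of kinesin cofactors, was higher by a log2 fold change of 1.80 ± 0.21, adjusted p = 2.66e-06 (edgeR), and by 0.47 after thinning. The beta-tubulin gene Tubb6 (-2.75 ± 0.50, adjusted p = 0.000226) and the alpha-tubulin gene Tuba1c (-2.29 ± 0.52, adjusted p = 0.00155) were lower; after thinning Tuba1c was at -2.01 and Tubb6 was too low to be tested. The Tuba1c value is uncertain in the same way as that of Tuba1a, since both share 3′ sequence.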
